A study of Mus musculus with 6 samples.

Results

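The genes described here are 10 mouse genes of Toll-like receptor recognition and signalling: the receptors Tlr1, Tlr2, Tlr3, Tlr4, Tlr5, Tlr6 and Tlr9, their adaptor Myd88 and the co-receptors Cd14 and Ly96. They were chosen by name, out of 21924 protein-coding gene symbols in the GENCODE annotation of GRCm38, and all 10 are autosomal. H3K4me3, a histone mark of active promoters, and H3K27me3, a mark deposited by Polycomb at repressed genes, were profiled by ChIP-seq in colonic organoids, which are epithelial cells of the colon grown in culture, from C57BL/6 mice. The wt organoids were untreated and the wt+TNFα organoids had received TNFα, an inflammatory cytokine, at 40 ng/ml for 3 weeks. Both conditions shared the wt organoid medium, which contained L-WRN conditioned medium, serum and small-molecule inhibitors, among them the p38 inhibitor SB203580 and the TGF-β receptor inhibitor A83-01. There was 1 library per condition and mark and 1 input library per condition, so no difference between the conditions has a replicate check and no test was possible. The labels planned 40000000 reads for each H3K4me3 and input library and 60000000 for each H3K27me3 library, and the reads themselves were not analysed here. The reporting summary of the study lists more total reads for the wt+TNFα than for the wt library of H3K4me3 and of input, and nearly equal totals for H3K27me3. The part of this difference in the peak widths and −log10 q below was not tested. RNA was not analysed here, so every value below describes a histone mark and not expression.

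Toll-like receptors recognise conserved molecules of microbes. Tlr1, Tlr2, Tlr4, Tlr5 and Tlr6 act mainly at the cell surface, where they bind lipoproteins, lipopolysaccharide or flagellin, whereas Tlr3 and Tlr9 bind double-stranded RNA and unmethylated CpG DNA in endosomes. Cd14 hands lipopolysaccharide to the complex of Tlr4 and Ly96 (also called MD-2), and Myd88 passes the signal of every member receptor except Tlr3 on to NF-κB. In the colon these receptors face a dense microbial community, and their level in the epithelium is known to be kept low or restricted to particular cells.

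For each gene, the promoter was taken as 1000 bp on each side of every annotated transcript start, with overlapping windows joined. A promoter had a peak where at least 1 bp lay under one, and the covered share is the percentage of promoter bases under peaks of that list. Fold enrichment and −log10 q are the values MACS2 gave each peak within its own library. H3K4me3 lay at the promoters of 8 of the 10 genes in wt organoids and of the same 8 in wt+TNFα organoids, with Tlr6 and Tlr9 as the exceptions. Over all protein-coding genes, 50.5% had such a peak in wt organoids and 51.2% with TNFα. H3K27me3 was at none of the 10 promoters in wt organoids, against 21.7% of protein-coding genes, and at 2 (Tlr5 and Tlr9) in wt+TNFα organoids, against 29.5%. With 10 genes chosen by name, these counts describe the genes and were not tested against the background.

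The promoter sequences available for 7 of the 10 genes are windows of 300 bases, 250 before and 50 after a RefSeq transcript start in GRCm38.p6. Windows of 5 genes are shown because they separate the H3K4me3 patterns: Tlr2, whose window lay wholly under the mark and held matches to the NF-κB motif, Tlr1 and Myd88, whose shown windows lay wholly under it, and Tlr6 and Tlr9, whose windows lay outside every H3K4me3 peak. In the Tlr2 line the capitals mark the NF-κB matches, and in the other lines they mark CG dinucleotides, of which the Tlr9 window has none. Tlr1 and Tlr6 each have a second RefSeq window, and the one with more bases under a wt H3K4me3 peak is shown. Neither Tlr6 window had any, and the one nearer the gene start is shown. The other Tlr1 window had 2 bp under the wt and 28 bp under the wt+TNFα peak and held 3 CG dinucleotides. The other Tlr6 window held 5. The Tlr5 window, also not shown, lay partly under the mark, with 69 bp in wt and 87 bp in wt+TNFα organoids.
Tlr2 chr3:83841559-83841858 (- strand): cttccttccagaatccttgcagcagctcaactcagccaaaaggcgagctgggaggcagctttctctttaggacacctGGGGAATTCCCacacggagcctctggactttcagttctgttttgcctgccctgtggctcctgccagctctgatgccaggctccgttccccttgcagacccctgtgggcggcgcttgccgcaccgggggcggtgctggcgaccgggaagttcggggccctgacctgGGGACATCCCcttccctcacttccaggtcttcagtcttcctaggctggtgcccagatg
Tlr1 chr5:64932650-64932949 (- strand): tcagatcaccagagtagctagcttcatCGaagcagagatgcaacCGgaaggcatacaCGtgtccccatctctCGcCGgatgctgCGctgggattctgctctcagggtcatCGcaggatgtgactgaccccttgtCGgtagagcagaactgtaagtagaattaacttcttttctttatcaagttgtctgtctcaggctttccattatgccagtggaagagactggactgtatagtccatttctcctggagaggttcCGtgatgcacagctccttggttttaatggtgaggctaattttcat
Myd88 chr9:119339969-119340268 (- strand): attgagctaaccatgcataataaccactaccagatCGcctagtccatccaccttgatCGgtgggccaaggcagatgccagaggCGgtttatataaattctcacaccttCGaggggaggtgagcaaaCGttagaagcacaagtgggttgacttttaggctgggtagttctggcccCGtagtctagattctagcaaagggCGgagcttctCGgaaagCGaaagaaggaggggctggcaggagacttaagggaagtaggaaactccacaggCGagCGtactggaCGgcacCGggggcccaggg
Tlr6 chr5:64959999-64960298 (- strand): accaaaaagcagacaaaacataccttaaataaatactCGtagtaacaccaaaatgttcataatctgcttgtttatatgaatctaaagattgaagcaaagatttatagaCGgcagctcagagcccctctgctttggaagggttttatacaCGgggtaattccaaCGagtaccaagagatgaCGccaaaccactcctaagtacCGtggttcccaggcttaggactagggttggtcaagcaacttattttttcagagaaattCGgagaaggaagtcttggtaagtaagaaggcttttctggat
Tlr9 chr9:106222348-106222647 (+ strand): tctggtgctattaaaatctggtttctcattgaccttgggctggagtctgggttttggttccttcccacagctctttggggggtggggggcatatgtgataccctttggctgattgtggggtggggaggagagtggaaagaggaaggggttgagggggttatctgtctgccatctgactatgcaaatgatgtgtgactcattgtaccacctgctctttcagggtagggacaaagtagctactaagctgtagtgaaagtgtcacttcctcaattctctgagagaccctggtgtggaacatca

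The shown windows held 9 CG dinucleotides at Tlr1, 13 at Myd88, 7 at Tlr6 and 0 at Tlr9, and the Tlr2 window held 11. Those of Tlr3 and Tlr5 held 10 and 8. Among all 32851 RefSeq windows the median was 7, and it was 23 for the windows overlapped by a wt H3K4me3 peak and 4 for the others. The marked windows of these genes were therefore poorer in CG than the median marked window, and Tlr9 belonged to the 5.43% of windows with none. Myd88, with the most, had more than 62.1% of all windows. The Myd88 window contains the inner annotated starts, 1370 and 1409 bp into the gene, and not the outermost one.

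Motifs were searched on both strands, and overlapping matches to 1 motif were joined. A match to the NF-κB consensus (a degenerate motif given here by name) was present in 4.51% of all windows. Tlr2 held 2, GGGGAATTCCC at 173 to 163 bases before the start and GGGACATCCC across the start itself, and Tlr3 held 1, GGGAGTTTCC at 211 to 202 bases before it. The AP-1 motif TGANTCA, found in 7.81% of windows, occurred once at Tlr9, 58 to 52 bases before the start. The core GAGGAA bound by PU.1, a factor of myeloid and B cells, was in 28.3% of windows, with 2 matches at Tlr9 and 1 in a further Tlr1 window. The GC box GGGCGG was in 35.7% of windows and matched at Tlr2, Tlr3, Tlr5 and Myd88. These are matches of letters in a window and not binding sites.

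The labelled cell type was checked against its markers. Of 15 epithelial markers, 11 had an H3K4me3 promoter peak in both conditions, including Epcam, Cdh1, Cdx1, Cdx2 and Krt8, while Krt20 had one in wt alone and Car1 in wt+TNFα organoids alone. The other 2, the stem cell marker Lgr5 and the goblet cell mucin Muc2, had no H3K4me3 peak and instead carried H3K27me3. It covered 36.4% and 28.6% of the promoter, the same share in both conditions. The −log10 q in wt and wt+TNFα organoids was 4.56 and 7.96 at Lgr5 and 1.38 and 2.66 at Muc2. The peak itself was 6160 and 14653 bp wide at Lgr5 and 20444 and 21906 bp wide at Muc2. None of 15 leukocyte markers (among them Ptprc, Spi1, Itgam and Lyz2) and none of 10 stromal and endothelial markers (among them Col1a1, Pdgfra and Pecam1) had an H3K4me3 promoter peak in either condition. H3K4me3 at Cd14, Ly96, Tlr1, Tlr2 and Tlr4, genes well known from myeloid cells, was recorded in the same lists, and whether another cell type contributed to it was not tested. The covered share of each promoter by mark and condition is plotted by gene.

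**Figure D1:**
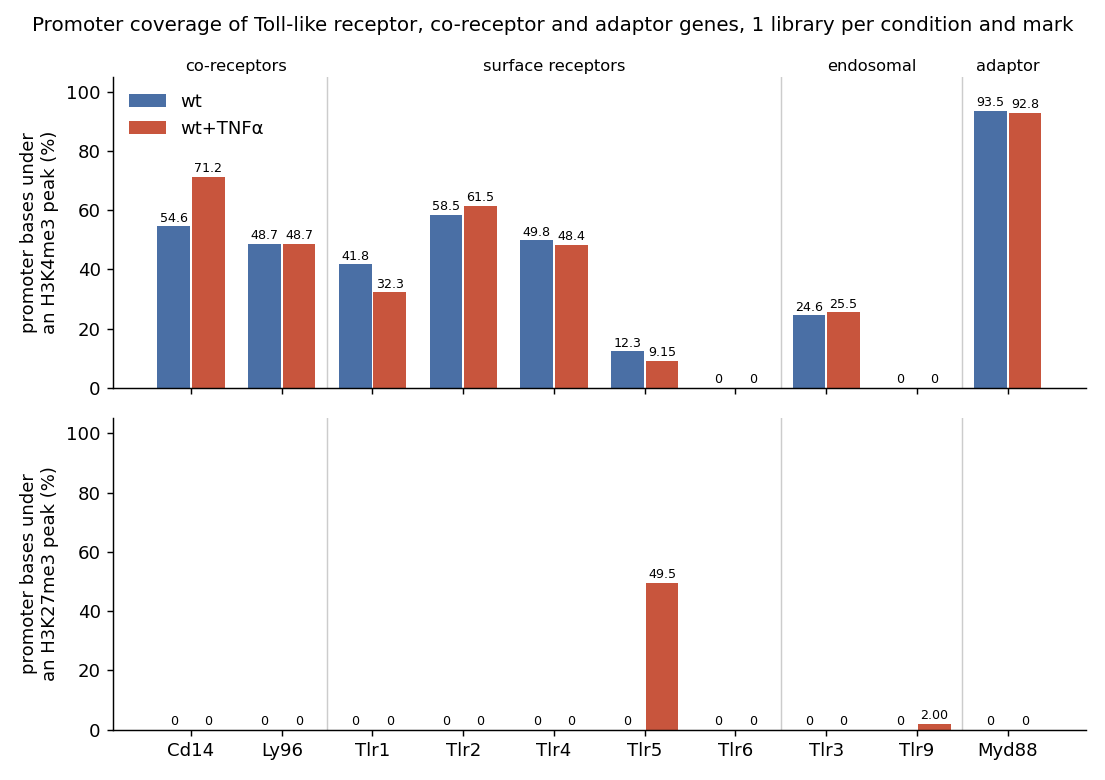
Bars give the percentage of promoter bases under an H3K4me3 peak (upper panel) or an H3K27me3 peak (lower panel) for each gene, in wt (blue) and wt+TNFα (red) organoids, from 1 library each, with the value printed above each bar. H3K4me3 was at 8 genes in both conditions with the largest difference at Cd14 (54.6% and 71.2%), and H3K27me3 appeared at Tlr5 (49.5%) and Tlr9 (2.0%) in wt+TNFα organoids alone.

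The covered share of H3K4me3 was at least 10 percentage points higher in wt+TNFα organoids at 1 of the 10 genes, Cd14, against 3.92% of protein-coding genes. It was at least 10 points lower at none, against 1.08%. No member had an H3K4me3 peak in 1 condition alone, which held for 1.49% of protein-coding genes in wt+TNFα and 0.743% in wt organoids. The median covered share of the 8 marked genes was 49.2% in wt and 48.5% in wt+TNFα organoids, while over all marked protein-coding genes it was 30.8% and 32.5%. Their widest promoter peaks, by contrast, had a median of 1196 bp in wt and 1233 bp in wt+TNFα organoids, below the 1559 bp and 1678 bp of all marked protein-coding genes. The share and the width need not move together, since a gene with many starts has a longer promoter.

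Of the co-receptors, Cd14 (ENSMUSG00000051439, GRCm38 chr18:36725067-36726798, minus strand) had the largest difference in H3K4me3 width among the members. Its peak spanned 1854 bp in wt organoids (chr18:36725009-36726862) and 2902 bp in wt+TNFα organoids (chr18:36724303-36727204). The upstream edge lay 342 bp and the downstream edge 706 bp further out with TNFα, so the peak extended on both sides. The width ratio of wt+TNFα to wt was 1.57, higher than at 96.6% of the 10903 protein-coding genes with a promoter peak in both conditions. A ratio of at least 1.5 was reached by 4.09% of those genes, and by Cd14 alone among the 8 members. The fold enrichment of the Cd14 peak was 18.0 in wt and 24.6 in wt+TNFα organoids, with −log10 q of 108 and 165. Cd14 is a short gene annotated with a single merged exon, and 100% of it lay under the peak in both conditions.

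Ly96 (ENSMUSG00000025779, chr1:16688051-16709611, plus strand), which holds lipopolysaccharide within the Tlr4 complex, had a peak of 1197 bp in each condition. The covered share was 48.7% in both. The peak was shifted rather than resized, and both edges lay 69 bp further downstream in wt+TNFα organoids (chr1:16688013-16689209 and chr1:16688082-16689278). As a result the outermost annotated start was inside the wt peak and 31 bp upstream of the wt+TNFα peak, while the other 2 starts, 382 and 457 bp into the gene, were inside both. Fold enrichment was 20.5 in wt and 24.9 in wt+TNFα organoids. The nearest H3K27me3 peak was 38.6 kb from the promoter in wt and 36.1 kb in wt+TNFα organoids.

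**Figure D2:**
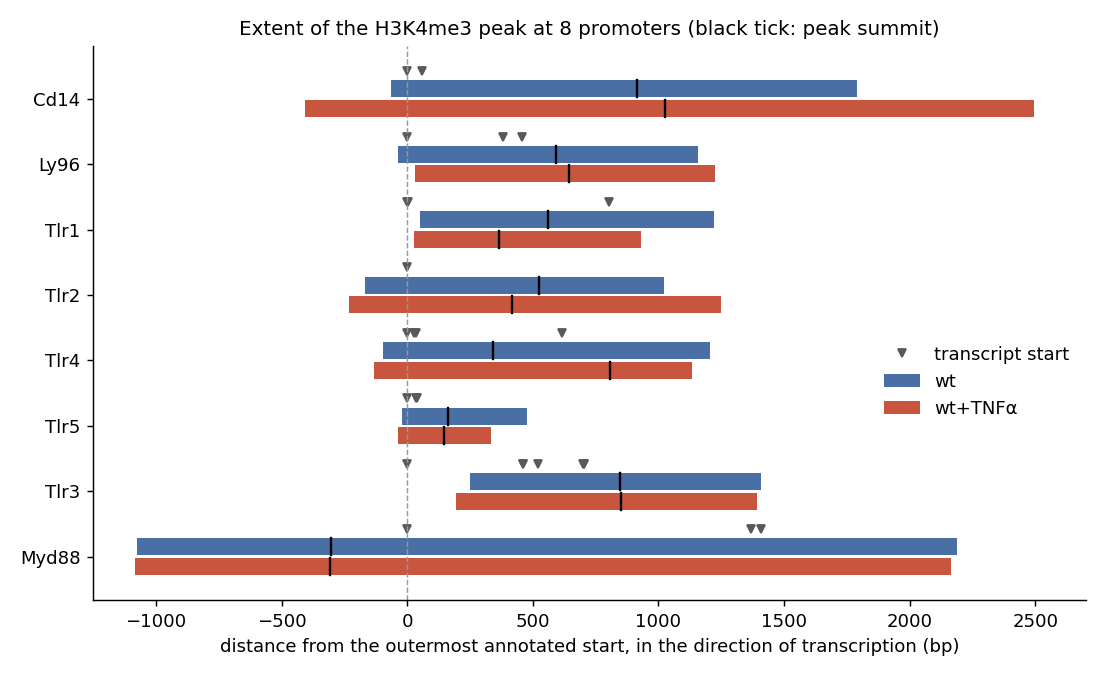
Each bar is the H3K4me3 peak at a promoter in wt (blue) or wt+TNFα (red) organoids, placed by distance in bp from the outermost annotated start in the direction of transcription, with triangles for annotated transcript starts within 3 kb and a black tick at the peak summit. The Cd14 peak extended further on both sides with TNFα, those of Tlr1 and Tlr5 ended earlier downstream, and that of Ly96 was displaced by 69 bp.

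Among the surface receptors, Tlr2 (ENSMUSG00000027995, chr3:83836272-83841767, minus strand), the shared partner of Tlr1 and Tlr6 in sensing bacterial lipoproteins, had a wider peak in wt+TNFα organoids. It measured 1194 bp in wt and 1480 bp in wt+TNFα organoids, a ratio of 1.24 that exceeded 87.8% of genes. Fold enrichment was 18.5 in wt and 26.4 in wt+TNFα organoids. Most of the added width was downstream of the start, with 225 bp there and 61 bp upstream, so the covered share was 58.5% and 61.5%. The peak covered all of the RefSeq window with the NF-κB matches shown above in both conditions.

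Tlr1 (ENSMUSG00000044827, chr5:64924679-64933563, minus strand) and Tlr5 (ENSMUSG00000079164, chr1:182954788-182976044, plus strand) had narrower H3K4me3 peaks in wt+TNFα organoids. The Tlr1 peak spanned 1171 bp in wt (chr5:64932340-64933510) and 905 bp in wt+TNFα organoids (chr5:64932632-64933536), and its covered share was 41.8% and 32.3%, or 64.9% and 50.2% of a promoter of 500 bp on each side. The width ratio of 0.773 was above that of only 2.05% of genes. Its fold enrichment was 14.0 in wt and 9.93 in wt+TNFα organoids, with −log10 q of 57.2 and 35.4. The difference lay at the downstream edge, which was 292 bp nearer to the start with TNFα, while the upstream edge was 26 bp further out. In both conditions the peak sat downstream of the 2 outer starts and contained the inner one, 802 bp into the gene. That inner start lies within the Tlr1 window shown above.

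Tlr5, the receptor for flagellin, had the narrowest H3K4me3 peak of the members in both conditions, 499 bp in wt (chr1:182954769-182955267) and 370 bp in wt+TNFα organoids (chr1:182954751-182955120). Only 5.32% of the peaks of the wt list and 0.841% of those of the wt+TNFα list were narrower. The width ratio of 0.741 was above that of 1.64% of genes. Fold enrichment was 9.37 in wt and 6.53 in wt+TNFα organoids, with −log10 q of 35.6 and 18.1. The covered share was 12.3% and 9.15%, and over the joined window of the 3 clustered 5′ starts alone it was 24.4% and 18.1%. A peak at least 1.5-fold narrower with TNFα was found at 0.899% of genes and at none of the 8 members, so Tlr1 and Tlr5 were short of that ratio.

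Tlr4 (ENSMUSG00000039005, chr4:66827584-66930284, plus strand), the signalling receptor for lipopolysaccharide, differed little between the conditions. Its peak spanned 1304 bp in wt and 1267 bp in wt+TNFα organoids, and the covered share was 49.8% and 48.4%. Fold enrichment was 9.15 and 9.03, above that of 12.99% of wt and 12.3% of wt+TNFα H3K4me3 peaks. The summit lay 343 bp downstream of the first start in wt and 807 bp downstream in wt+TNFα organoids, within nearly the same peak. H3K27me3 was far from Tlr4, with the nearest peak 422 kb away in wt and 421 kb away in wt+TNFα organoids, at Astn2.

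Tlr6 (ENSMUSG00000051498, chr5:64952031-64960097, minus strand), which pairs with Tlr2, had no H3K4me3 peak at its promoter or in its gene in either condition. The nearest one lay 8.49 kb from the promoter in wt and 8.35 kb in wt+TNFα organoids, at the promoters of Fam114a1 and Mir574. Tlr1 and Tlr6 are neighbours on chromosome 5, and only Tlr1 of this pair carried the mark.

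Of the endosomal receptors, Tlr3 (ENSMUSG00000031639, chr8:45395665-45411080, minus strand) had nearly equal H3K4me3 in the 2 conditions. Its peak spanned 1157 bp in wt and 1199 bp in wt+TNFα organoids, with fold enrichment of 13.8 and 14.8. The covered share of 24.6% and 25.5% was taken over 2 separate promoter windows, of which the one around a start 12794 bp into the gene had no peak. Of the 8 annotated starts, 6 were inside the peak in each condition. The same peak overlapped the promoter of the antisense gene Gm45542, so the mark there cannot be assigned to Tlr3 alone.

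Tlr9 (ENSMUSG00000045322, chr9:106222598-106226883, plus strand) had no H3K4me3 peak at its promoter or in its gene. The nearest one was at the promoter of Twf2, 17.9 kb away in each condition. Together with Tlr6, it was 1 of the 2 members without H3K4me3 in either condition, and both had H3K27me3 within the gene in wt+TNFα organoids.

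Myd88 (ENSMUSG00000032508, chr9:119335934-119341411, minus strand) had the widest and most enriched H3K4me3 peak of the members. It spanned 3266 bp in wt (chr9:119339222-119342487) and 3247 bp in wt+TNFα organoids (chr9:119339248-119342494), wider than 95.4% and 94.3% of the peaks of each list. The covered share was 93.5% and 92.8%, and all 3 starts were inside the peak in both conditions. Fold enrichment was 38.5 in wt and 35.3 in wt+TNFα organoids, whereas −log10 q was 239 and 284, so the 2 measures of strength differed in direction. The peak also covered the promoter of the neighbouring gene Acaa1a, which encodes a peroxisomal thiolase, and its summit lay 304 bp upstream of the outermost Myd88 start in wt and 308 bp upstream in wt+TNFα organoids. The mark in this interval cannot be divided between the genes.

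**Figure D3:**
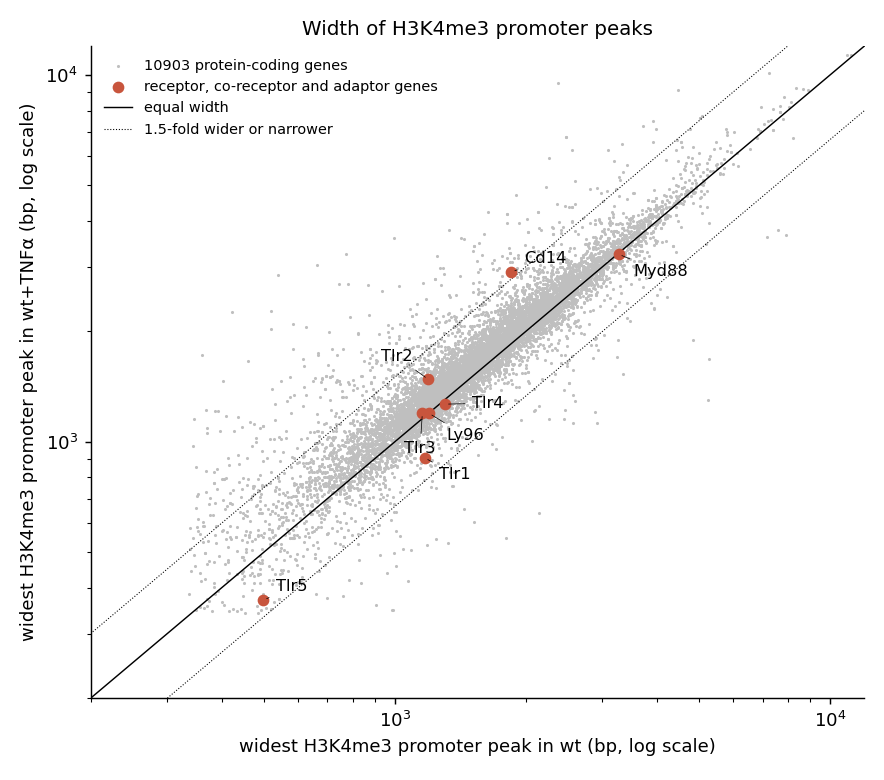
Each grey point is 1 of 10903 protein-coding genes, placed by the width of its widest H3K4me3 promoter peak in wt and in wt+TNFα organoids (bp, both axes on a log scale), and red points are the 8 marked genes among the receptors, co-receptors and adaptor described here. The solid line marks equal width and the dotted lines a 1.5-fold difference, beyond which lay Cd14 (1854 and 2902 bp), while Tlr1 and Tlr5 lay below the solid line.

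Across the 8 marked genes the width ratio of wt+TNFα to wt had a median of 0.997, against 1.07 over all genes with a peak in both conditions, where the 10th and 90th percentiles were 0.936 and 1.27. Cd14 was outside this range on the wider side, and Tlr1 (0.773) and Tlr5 (0.741) were outside it on the narrower side. Tlr2, Tlr3, Tlr4, Ly96 and Myd88, with ratios from 0.972 to 1.24, were within it. Fold enrichment was higher in wt+TNFα organoids at Cd14, Ly96, Tlr2 and Tlr3 and lower at Tlr1, Tlr4, Tlr5 and Myd88. Its median over the whole lists was 24.6 in wt and 26.97 in wt+TNFα organoids, so a given value has a different place in each list, and these differences between libraries are values with no test. Only Myd88 had an H3K4me3 peak above the median −log10 q of its list (161 in wt and 180 in wt+TNFα).

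No H3K27me3 peak lay at the promoter or gene body of any of the 10 genes in wt organoids, and in wt+TNFα organoids peaks were recorded at Tlr5, Tlr6 and Tlr9. A peak at the promoter in wt+TNFα organoids alone was found at 2 of the 10 genes (Tlr5 and Tlr9), against 9.0% of all protein-coding genes and 6.48% of the autosomal ones. With only peaks of a −log10 q of at least 2 it was found at 0 of the 10, against 6.81% of the autosomal ones. The covered share was at least 10 points higher at 1 gene, Tlr5, against 15.8% of all and 13.3% of autosomal protein-coding genes, and at least 10 points lower at none, against 2.11%. None of the 10 had a promoter peak in wt alone, which held for 1.21%. Over the whole gene, 0 of the 10 had an H3K27me3 peak in wt, against 26.5% of autosomal protein-coding genes, and 3 had one in wt+TNFα organoids, against 31.9%. All 3 were marked in wt+TNFα organoids alone, which held for 6.62% of autosomal protein-coding genes. The H3K27me3 lists differed in extent, with 30594 peaks over 102 Mb in wt and 60540 peaks over 303 Mb in wt+TNFα organoids, and the names of all lists except that of wt+TNFα H3K27me3 mention a spike-in. The part of these differences in the values of Tlr5, Tlr6 and Tlr9 was not tested.

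The H3K27me3 peak at Tlr5 was 9247 bp long (chr1:182965681-182974927), with a fold enrichment of 2.07 and a −log10 q of 1.90. It was wider than 86.8% and more enriched than 79.0% of the peaks of the wt+TNFα list. It lay 10893 bp and more downstream of the gene start, over 3454 exonic and 5793 intronic bases, and covered 43.5% of the gene. It reached none of the promoter at the 3 clustered starts, where H3K4me3 was present. The 49.5% of promoter bases that it covered came from the whole window of a start 17389 bp into the gene, so the 2 marks at Tlr5 lay in separate parts of the gene. In the 50 kb on each side of Tlr5, together with the gene itself, H3K27me3 covered 14.6% in wt and 39.0% in wt+TNFα organoids, and the nearest wt peak was 6.45 kb from the promoter.

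At Tlr9 the peak was 2416 bp long (chr9:106223559-106225974), with a fold enrichment of 1.86 and a −log10 q of 1.21. It lay wholly within an exon and covered 56.4% of the gene, but only 40 bp of the promoter, or 2.0%. The nearest wt peak was 68.2 kb away. At Tlr6, peaks of 3682 bp (chr5:64952566-64956247) and 490 bp (chr5:64957803-64958292) covered 51.7% of the gene and came no nearer than 754 bp to the promoter. Their fold enrichments were 1.86 and 1.74 and their −log10 q were 1.24 and 0.826, and the nearest wt peak was 405 kb from the promoter. The 4 H3K27me3 peaks at members all had a −log10 q below 2, so none would be kept if the listed value had to reach 2. Their −log10 p lay between 2.13 and 3.44. A −log10 q of 2 is the threshold that the reporting summary names for this mark, while both deposited lists also hold weaker peaks. The summary does not say how the listed values relate to it.

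In all 3 genes an H3K27me3 peak overlapped the last exon, which is also the longest and, in Toll-like receptor genes, carries much of the coding sequence. It covered 71.1% of the 3868 bp last exon of Tlr5, 85.0% of the 3563 bp last exon of Tlr6 and 71.7% of the 3369 bp last exon of Tlr9. The genes are 21257, 8067 and 4286 bp long, so this exon is a large part of Tlr6 and most of Tlr9. A peak over much of either gene would readily overlap it. The same overlap was not counted over other genes. The longest exons of Tlr1, Tlr2, Tlr3 and Tlr4, from 2518 to 3572 bp, had no base under H3K27me3 in either condition, and none of them had a base under H3K4me3.

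**Figure D4:**
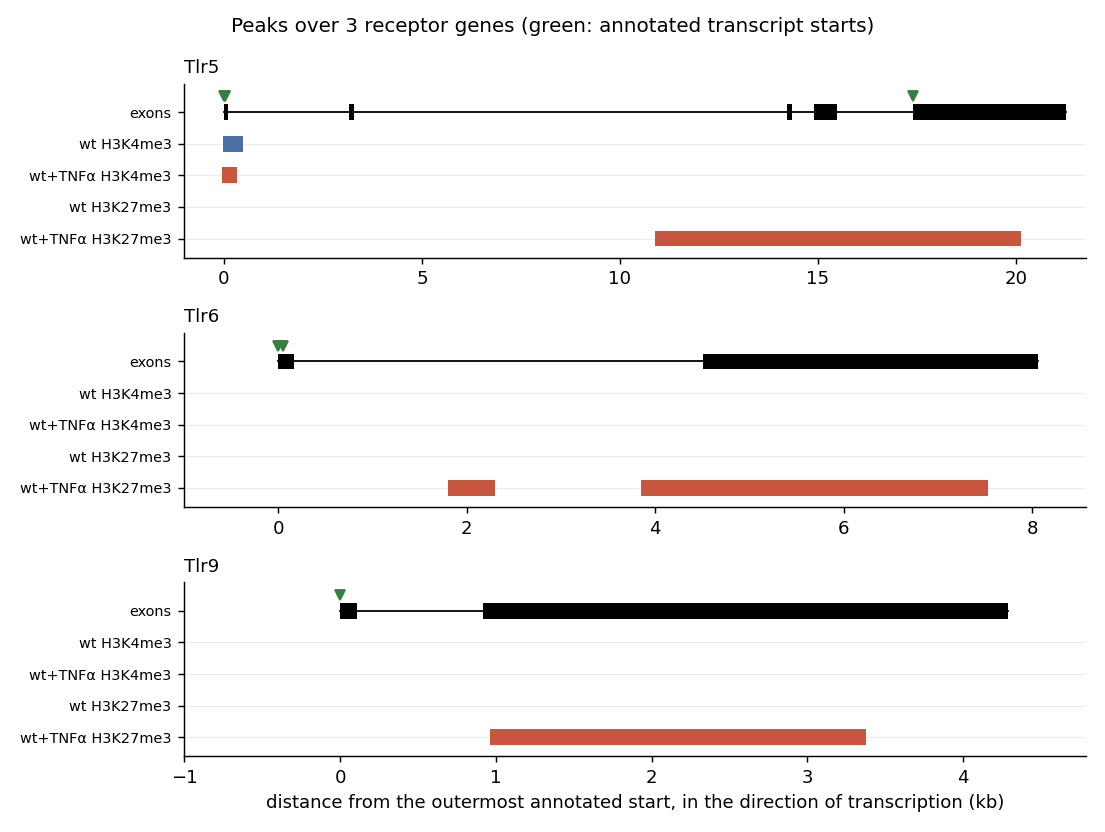
Tlr5, Tlr6 and Tlr9 are drawn by distance in kb from the outermost annotated start in the direction of transcription, with exons in black, transcript starts as green triangles and the peaks of each list in a lane of their own (wt blue, wt+TNFα red). H3K27me3 peaks are present only in the wt+TNFα lane, and in each gene a peak overlaps the last exon, reaching into the introns before it at Tlr5 and Tlr6, where a second peak of 490 bp is wholly intronic.

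The remaining genes were free of H3K27me3 at promoter and gene body in both conditions, at varied distances from the nearest peak. It lay 11.5 kb in wt and 8.95 kb in wt+TNFα organoids from the Tlr3 promoters, at the neighbouring gene Fam149a. For Tlr1 it was 431 kb away in wt and 11.4 kb away in wt+TNFα organoids, in the interval between Tlr1 and Tlr6. For Tlr2 the distance was 51.0 kb in wt and 70.3 kb in wt+TNFα organoids, the latter peak at Sfrp2. For Cd14 it was 81.5 kb and 79.4 kb, and for Myd88 132 kb and 55.0 kb.

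Tlr5 had the largest summed difference of covered share over both marks (52.7 percentage points). Among all protein-coding genes, the 3 nearest to it by Euclidean distance over the 4 covered shares were Coq8a at 3.59 points, Usp18 at 3.61 points and Zmat1 at 3.86 points. Each had H3K4me3 between 8.49% and 14.1% in both conditions, no H3K27me3 in wt and between 46.4% and 51.8% in wt+TNFα organoids. Zmat1 lies on chromosome X, where such a peak in wt+TNFα alone was common (66.2% of genes), and the other two are autosomal. The distance rests on 4 values from 4 libraries.

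Further genes of the pathway were taken from a list of 43, made of 5 other Toll-like receptors, 8 receptor cofactors and chaperones, 5 adaptors, 20 kinases and ubiquitin ligases and 5 negative regulators. H3K4me3 was at 28 promoters in both conditions, at 1 in wt+TNFα organoids alone and at 14 in neither. The list was thus marked at 65.1% in wt and 67.4% in wt+TNFα organoids, against 50.5% and 51.2% of protein-coding genes. The groups differed in these counts. None of the 5 other receptors was marked in either condition, so the mark was at 5 of the 12 receptor genes examined, all of them members. It was at 3 of 8 cofactors, 2 of 5 adaptors and 4 of 5 negative regulators in both conditions, and at 19 of 20 kinases and ubiquitin ligases in wt and 20 in wt+TNFα organoids. The gene marked in wt+TNFα organoids alone was Peli3, a Pellino ubiquitin ligase, with a peak of 525 bp, a fold enrichment of 6.89 and a covered share of 12.9%. Peli3 also had H3K27me3 in both conditions, with covered shares of 61.5% and 75.0% and −log10 q of 1.03 and 5.58. The H3K4me3 share was at least 10 points higher at 3 of the 43, Peli3, the kinase gene Irak4 (68.9% and 81.2%) and the X-linked Ikbkg (40.3% and 57.7%), and lower at 1, the X-linked Tab3 (78.9% and 60.7%). These are 6.98% and 2.33% of the list, against 3.92% and 1.08% of protein-coding genes.

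H3K27me3 was at 8 of the 37 autosomal genes of this list (21.6%) in wt and at 11 (29.7%) in wt+TNFα organoids, near the 22.3% and 27.5% of all autosomal protein-coding genes. The 3 marked in wt+TNFα organoids alone (8.11%, against 6.48%) were Cd36, a scavenger receptor that works with Tlr2 and Tlr6 (7.08%), and Cd180 (28.1%) and Ly86 (28.0%), whose products form a complex related to that of Tlr4 and Ly96. Their fold enrichments, from 1.82 to 1.89, were like those at Tlr6 and Tlr9. Their −log10 q, from 1.05 to 1.26, was below 2, so none of the 3 would be kept at that threshold. With only peaks that reached it, an alternative chosen after seeing the data, the list had 5 genes marked in wt and 8 in wt+TNFα organoids, or 13.5% and 21.6% against 14.0% and 20.1% of autosomal protein-coding genes. Those in wt+TNFα organoids alone were then 3 others (8.11%, against 6.81%), Peli3, Tlr12 and the negative regulator Tollip, each with a wt peak below the threshold. Among the 5 other receptors, the autosomal Tlr12 was fully covered in both conditions (−log10 q of 1.72 in wt and 3.12 in wt+TNFα organoids) and Tlr11 was free of the mark. All 6 X-linked genes of the list were free of H3K27me3 in wt and marked in wt+TNFα organoids, with covered shares of 56.6% at Tlr7, 13.3% at Tlr8, 45.4% at Tlr13, 100% at Irak1, 100% at Tab3 and 87.2% at Ikbkg. Of their peaks only that at Tlr8 (−log10 q of 2.11) reached 2, and the other 5 lay between 1.18 and 1.94. On chromosome X as a whole, a promoter peak in wt+TNFα alone was found at 66.2% of 948 protein-coding genes, and for these 3 receptors and 3 signalling genes a difference of the pathway and one of the whole chromosome cannot be told apart.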

How the data were processed

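Colonic organoids of wt mice were profiled by ChIP-seq with and without TNFα, and samples were grouped by condition and mark from their titles. Per the paper's methods and the labels, the authors used fastp for trimming, BWA 2.2 for alignment to GRCm38/mm10 and SAMtools 1.11 to take out duplicates, excluded blacklisted regions, and obtained narrow H3K4me3 and broad H3K27me3 peaks from MACS2 with the input as control. The processing notes give MACS2 2.1.0, and the reporting summary names another version. In the 4 deposited lists, fold enrichment is a ratio of ChIP signal over local background, and p-values and q-values are given by the authors as −log10 values. MACS2 computed both within 1 library, so they were ranked within their own list, and values from different lists are given side by side with no test. The peak lists hold no depth, and the read totals of the reporting summary are not reprinted here.

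Peaks were overlapped with promoters from GENCODE release M21 (1000 bp on each side of every start) in Python 3.11.15 with numpy 2.4.6 and pandas 2.3.3. Coordinates are printed here as 1-based. The overlap step was tested on simulated peaks. No test was run, since each condition had 1 library. A difference of 10 percentage points of covered share or a 1.5-fold ratio of width was counted, and the counts of the 10 genes and of the pathway list were set beside the same counts over protein-coding genes. All 10 genes were named, and so were pathway genes with a promoter peak in 1 condition alone and the 3 genes nearest to the member with the largest difference. Irak4, Tlr11, Tlr12, Tollip and the differences of H3K4me3 at Ikbkg and Tab3 were named after their values were seen. The genes and lists were chosen with earlier results of these data known. Promoter sequences are from RefSeq (GRCm38.p6). Alternatives covered promoter length, start choice, overlap and peak strength.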

Additional observations from a re-analysis of the deposited data

How the results depend on the processing

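The 8 counts of genes were recomputed under 8 alternatives where each applied, the −log10 q of 2 for H3K27me3 alone and the longer overlap for counts of peaks alone, which gave 56 values, of which 42 were within 1.5 times of the reported count. Restricted to the stronger part of each list (−log10 q above its median), H3K4me3 was at 1 gene (Myd88) in each condition instead of 8, and 0 genes instead of 1 had a higher covered share. With 500 bp on each side of a start, 1 gene (Tlr1) had an H3K4me3 share at least 10 points lower, instead of 0. H3K27me3 promoter peaks in wt+TNFα organoids numbered 1 instead of 2 with 500 bp on each side, upstream bases alone, an overlap of at least 200 bp, the stronger part of the list or equal numbers of peaks (each time Tlr5), and 1 with the outermost start alone (Tlr9). They numbered 0 once peaks had to reach a −log10 q of 2, the threshold the reporting summary names for the mark. At that threshold 20.1% of autosomal protein-coding genes had such a peak in wt+TNFα organoids. The count of genes with an H3K27me3 share at least 10 points higher was 2 with 2000 bp on each side, where Tlr9 joined Tlr5, and 0 with the outermost start alone or at that −log10 q. The H3K27me3 values of Tlr5, Tlr6 and Tlr9 thus rest on peaks of low −log10 q, and that of the Tlr5 promoter on 1 internal start. Why the counts moved was not tested beyond the construction of each alternative. Leaving out a replicate was not possible with 1 library per condition and mark.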
